A study of Mus musculus with 8 samples.

Results

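The 4 genes described here encode the proteins that carry inorganic phosphate into and out of mouse cells and into their mitochondria: Slc20a1, Slc20a2, Xpr1 and Slc25a3. They were taken by name, through the gene symbol or the RefSeq accession that the array files give for each probe, and are 4 of 27660 gene symbols on the array. They were read by 7 probes, 2 of Slc20a1, 1 of Slc20a2, 3 of Xpr1 and 1 of Slc25a3. The set was proposed because an earlier look at these arrays had found a large difference for Slc20a1, so the differences between the groups are given below as descriptions, with no p-value of their own.

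RNA came from 4 samples labelled Psgl1-/- (replicates 5 to 8) and 4 labelled Psgl1+/+ (replicates 1 to 4), each hybridised to 1 single-colour Agilent array of a custom mouse design. In all 8 the cells were marrow-derived: bone marrow carrying the red fluorescent protein DsRed, from Psgl1-/- (Selplg knockout) or Psgl1+/+ donors, had been transplanted into wild-type mice, whose middle cerebral artery was then occluded for 30 min and reperfused. PSGL-1, the product of Selplg, is the selectin-binding glycoprotein by which leukocytes roll on the vessel wall. The ischemic brain was taken 7 days later, CD11b+ cells were enriched on beads, and live DsRed+ CD11b+ CD45hi cells lacking Ly6G and CD3 were sorted, so that resident host cells without DsRed were gated out in both groups. Age, sex and the number of mice behind a sample are not given in the sources used here, so the spread between samples may in part be technical.

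Phosphate enters most cells with sodium through PiT1 (Slc20a1) and PiT2 (Slc20a2), and the only known dedicated exporter of animal cells is XPR1, whose cytoplasmic SPX domain binds inositol pyrophosphates. The mitochondrial phosphate carrier Slc25a3 brings phosphate into the matrix, where ATP synthase uses it. PiT1, PiT2 and XPR1 are also the cell-surface receptors of several gammaretroviruses, and loss of human SLC20A2 or XPR1 causes familial brain calcification.

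The sequences that carried the readings are shown because probes of 1 gene gave different results. The last 30 bases of each of the 4 RefSeq probes with a signal discussed at length are given 5′ to 3′ as deposited, with the letters AATAAA in capitals where present.
Slc20a1 NM_015747.2: tgtctacctcttaactgAATAAAaagccta
Slc20a1 NM_001159593.1: ccactgataatatgaccttctccctccctt
Xpr1 NM_011273.2: gtgactatgctattagctgtctccttttcc
Slc25a3 NM_133668.3: gaagaagaagcttgggttaactgagtagat
The Slc20a1 probes were 46 bases long for accession NM_015747.2 and 57 bases for accession NM_001159593.1. The first held AATAAA, the letters of the usual polyadenylation signal, starting at base 34, and the second held it on neither strand. Of all 60273 gene probes, 6.38% held AATAAA as deposited and 2.76% held its reverse complement. The probe of NM_015747.2 had a stop codon in each of its 3 forward reading frames, whereas that of NM_001159593.1 had 1 frame open throughout. Beside its own accession the files list 1 further accession for the first probe and 0 for the second, so the 2 probes need not read the same transcripts.

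The other Xpr1 probes carried Ensembl transcript identifiers. The files place them on the minus strand of chromosome 1 in mouse build mm9, at chr1:157169914-157169973 (ENSMUST00000129271) and chr1:157129971-157130030 (ENSMUST00000139925), 39943 bases apart. No exon annotation of that build was used here, so whether these intervals are exonic is not stated. The files give no position for the probes of Slc20a1, Slc20a2 and Slc25a3 or for the Xpr1 probe NM_011273.2. The RefSeq gene table puts Slc20a1 on chromosome 2, Slc20a2 on chromosome 8, Slc25a3 on chromosome 10 and Xpr1 on chromosome 1. None of the 7 probes shared the last 30 bases with any other probe on the array.

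Signals below are log2 processed signals scaled to the 75th percentile of each array, and a difference is the mean of the Psgl1-/- arrays minus the mean of the Psgl1+/+ arrays. Feature Extraction marks a spot as well above background when its signal clears the local background by a set margin. Probes with that mark on at least 4 of 8 arrays were fitted together with limma, 51382 in all, of which 5 belonged to these genes. The Slc20a2 probe and Xpr1 probe ENSMUST00000129271 did not reach that minimum. The spread between samples was wide on these arrays: the median SD within groups was 0.78 over all tested probes.

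Slc20a1, the sodium-dependent importer PiT1, was bright on every Psgl1-/- array and far dimmer on every Psgl1+/+ array when read by the NM_015747.2 probe. Its processed signal before scaling was 2820, 3960, 2110 and 1660 on Psgl1-/- replicates 5 to 8, against 83.1, 29.0, 16.1 and 22.4 on Psgl1+/+ replicates 1 to 4. After scaling the log2 signal was 11.27, 11.74, 10.89 and 10.34 on the Psgl1-/- arrays and 6.49, 4.86, 4.30 and 5.0 on the Psgl1+/+ arrays. The groups did not overlap, and the lowest Psgl1-/- array lay 3.85 above the highest Psgl1+/+ array. All 4 Psgl1-/- arrays and 3 of 4 Psgl1+/+ arrays were well above background, the exception being replicate 3.

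The means of this probe were 11.06 ± 0.59 in Psgl1-/- and 5.16 ± 0.94 in Psgl1+/+ (SD, n = 4 each), a difference of 5.89 (SE 0.53) or 59.3-fold. This difference led to the choice of the gene, so its passing of a threshold, counted further on, is no independent evidence. The spread within the groups, 0.78, equalled the median of all tested probes. The Psgl1-/- arrays stayed above the Psgl1+/+ arrays under each of the 5 other scalings and value sets tried, with gaps of 3.16 to 4.28. Of the settings that keep probes apart, the normexp background correction gave the smallest difference, 4.32. As the mean of both probes of Slc20a1 the gene gave 2.70.

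The NM_001159593.1 probe of Slc20a1 did not show this pattern. Its processed signal was 48.1, 36.6, 28.6 and 47.5 on Psgl1-/- replicates 5 to 8, against 48.8, 47.3, 32.1 and 35.5 on Psgl1+/+ replicates 1 to 4. The log2 signal was 5.39, 4.98, 4.68 and 5.21 on the Psgl1-/- arrays and 5.73, 5.57, 5.30 and 5.66 on the Psgl1+/+ arrays. This probe was dim but well above background on all 8 arrays, and the groups overlapped only through Psgl1-/- replicate 5 and Psgl1+/+ replicate 3. The difference was -0.50 (SE 0.26, 95% interval -1.09 to 0.10), so an increase of the size seen with the other probe lies far outside its interval. The median difference of all tested probes was -0.32, and with cyclic loess, which centres that median at 0, the difference of this probe was -0.07.

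**Figure D1:**
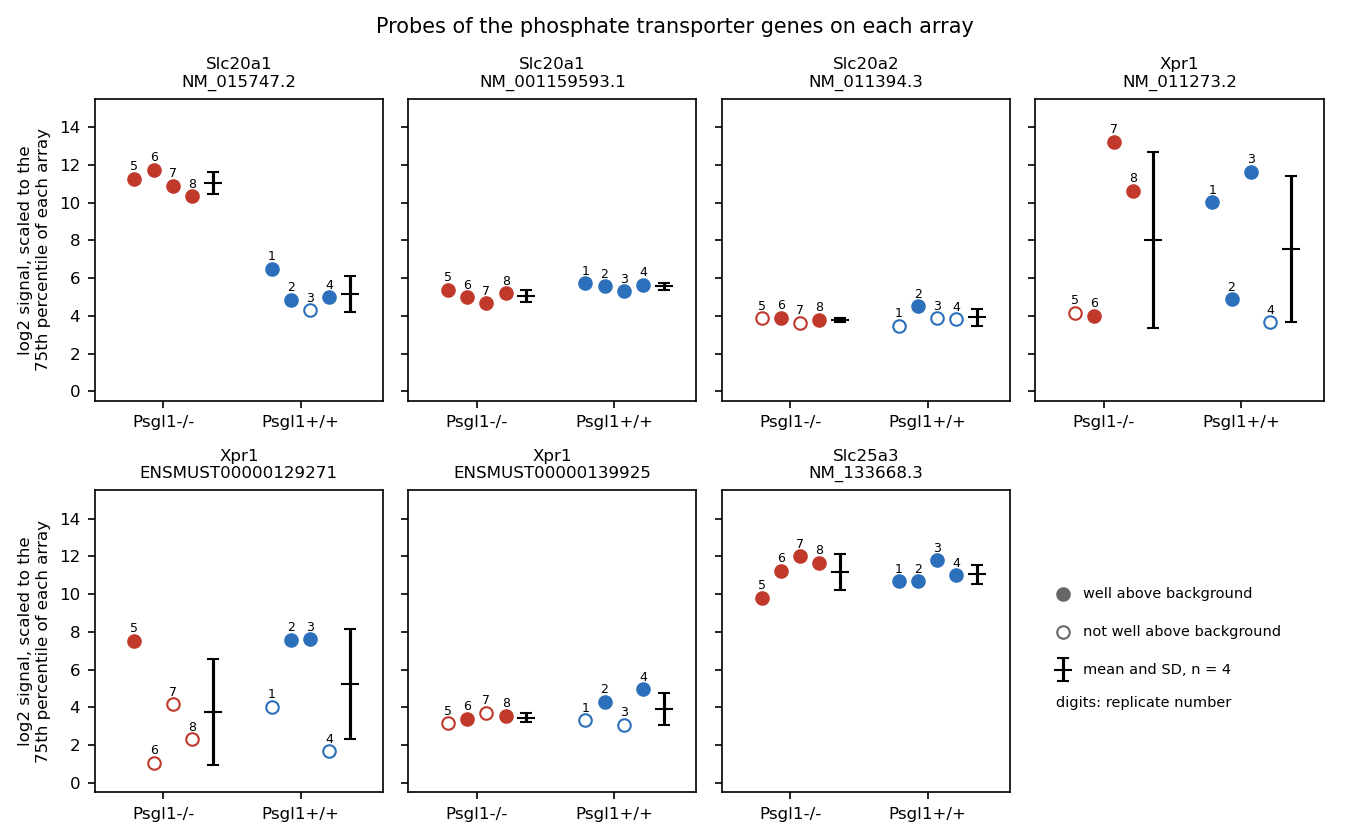
Log2 signal of the 7 probes of the 4 genes (vertical axis, scaled to the 75th percentile of each array) on the 4 Psgl1-/- arrays (left, red) and the 4 Psgl1+/+ arrays (right, blue), with open circles for spots not well above background and bars for the mean and SD (n = 4). The groups separate for the Slc20a1 probe NM_015747.2 alone, and the Xpr1 probe NM_011273.2 splits each group into high and low arrays.

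Slc20a2, the related importer PiT2, gave little signal in either group. Its processed signal was 16.8, 17.3, 13.9 and 17.7 on the Psgl1-/- arrays and 10.2, 22.8, 12.1 and 9.99 on the Psgl1+/+ arrays. It was well above background on 2 of 4 Psgl1-/- arrays (replicates 6 and 8) and 1 of 4 Psgl1+/+ arrays (replicate 2). The means were 3.80 ± 0.12 in Psgl1-/- and 3.93 ± 0.43 in Psgl1+/+ (SD, n = 4 each), with overlapping groups, and at this brightness a difference was not measurable.

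Xpr1, the phosphate exporter, varied by orders of magnitude between arrays of 1 group when read by the NM_011273.2 probe. The processed signal was 20.8, 18.6, 10800 and 2030 on Psgl1-/- replicates 5 to 8 and 958, 29.4, 2630 and 8.97 on Psgl1+/+ replicates 1 to 4. Psgl1-/- replicates 7 and 8 and Psgl1+/+ replicates 1 and 3 were therefore high, and the other 2 arrays of each group were low. On the log2 scale the values were 4.18, 4.01, 13.24 and 10.63 on the Psgl1-/- arrays and 10.02, 4.88, 11.65 and 3.68 on the Psgl1+/+ arrays.

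The means of this Xpr1 probe were 8.01 ± 4.65 in Psgl1-/- and 7.56 ± 3.88 in Psgl1+/+ (SD, n = 4 each), a difference of 0.46 (SE 2.69, 95% interval -5.80 to 6.71). An interval this wide leaves room for a large change in either direction. The SD within groups, 4.28, was at the 99.4th percentile of the tested probes. The arrays lay in 2 rows of the slide, with 2 arrays of each group in a row. Within row 1 the Xpr1 difference was 3.04 (means 7.32 in Psgl1-/- and 4.28 in Psgl1+/+), whereas within row 2 it was -2.12 (8.71 in Psgl1-/- and 10.84 in Psgl1+/+). For Slc20a1 NM_015747.2 the rows gave 6.11 and 5.68.

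The other Xpr1 probes did not follow the first. Probe ENSMUST00000129271 was well above background on Psgl1-/- replicate 5 and on Psgl1+/+ replicates 2 and 3, with log2 signals of 7.53, 1.06, 4.16 and 2.33 on the Psgl1-/- arrays and 4.05, 7.60, 7.61 and 1.69 on the Psgl1+/+ arrays. Psgl1-/- replicates 7 and 8, which were high for NM_011273.2, were low here. Probe ENSMUST00000139925 stayed dim throughout, at 3.16 to 3.73 on the Psgl1-/- arrays and 3.09 to 4.96 on the Psgl1+/+ arrays, with a difference of -0.46 (SE 0.45, 95% interval -1.50 to 0.59). It was well above background on 2 of 4 arrays of each group, replicates 2, 4, 6 and 8, which are the arrays of slide row 1. Replicate 7, in row 2, was brighter (3.73) than replicate 6 (3.39) but lacked the mark.

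Slc25a3, which supplies mitochondrial ATP synthase with phosphate, was bright on all 8 arrays and differed by less than the spread between them. The processed signal was 1030, 2810, 4620 and 4180 on Psgl1-/- replicates 5 to 8, against 1530, 1640, 2900 and 1450 on Psgl1+/+ replicates 1 to 4. The log2 signal was 9.81, 11.24, 12.02 and 11.67 on the Psgl1-/- arrays and 10.70, 10.68, 11.80 and 11.01 on the Psgl1+/+ arrays. The Psgl1-/- group held both the lowest array, replicate 5, and the highest, replicate 7. The means were 11.19 ± 0.97 in Psgl1-/- and 11.05 ± 0.52 in Psgl1+/+ (SD, n = 4 each), a difference of 0.14 (SE 0.53, 95% interval -1.09 to 1.37). Within slide row 1 the difference was 0.61 and within row 2 it was -0.33. The probe lists 3 further transcript accessions beside NM_133668.3, so its signal may include more than 1 transcript.

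Of the 5 tested probes of these genes, 3 had a positive and 2 a negative difference, with a median of 0.14, against a median of -0.32 over all tested probes, of which 31.7% were positive. By limma with Benjamini-Hochberg adjustment 9 of 51382 probes passed an adjusted threshold of 0.05 (0.0175%), all higher in the Psgl1-/- arrays, and 1 of the 9 was the Slc20a1 probe NM_015747.2. That call did not hold in any of the 8 fits without 1 array, with slide row as a block, within either row, or with 1 value per gene, and it was made in 8 of the 21 settings: as reported, under the other scalings, with normexp, without the filter, in the deposited values and with a variance trend. Its difference was 5.61 to 6.34 without single arrays and 5.89 with the block. None passed in the lower direction. Without adjustment, a p under 0.05 was reached by 839 probes in the higher direction (1.63%) and 4448 in the lower (10.3% in all), and the 4448 became 2933, 2339 and 2346 without Psgl1+/+ replicate 4, Psgl1-/- replicate 7 and Psgl1-/- replicate 8. The 9 became 0 without Psgl1+/+ replicate 1 or Psgl1-/- replicate 7, 4 without Psgl1+/+ replicate 2, 3 without Psgl1+/+ replicate 4 or Psgl1-/- replicate 5 or 8, and 22 without Psgl1-/- replicate 6. Groups without overlap, as for this Slc20a1 probe, were found for 0.66% of tested probes in the higher direction (10.5% in the lower, 11.2% in all), and 45 probes (0.0876%) had a difference at least as large. As the gene was chosen from this comparison, these shares describe it and nothing more.

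**Figure D2:**
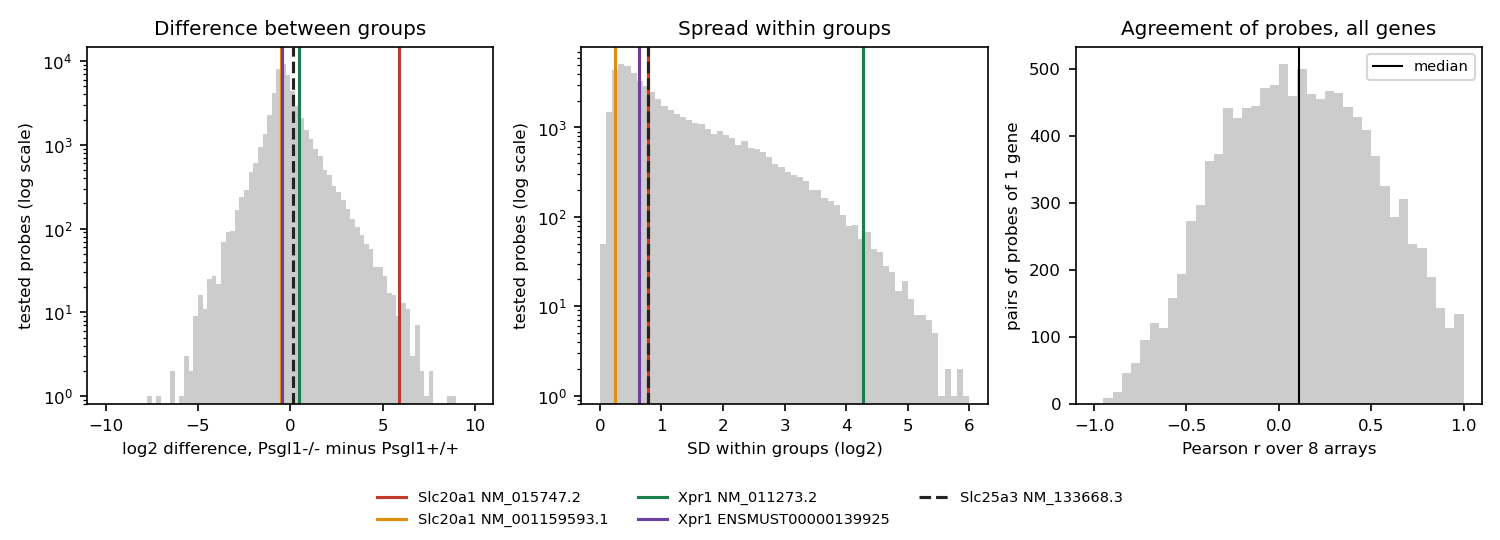
Left, the log2 difference (Psgl1-/- minus Psgl1+/+) of all 51382 tested probes with the 5 tested phosphate transporter probes as lines. Middle, the SD within groups of the same probes, where Slc20a1 NM_015747.2 and Slc25a3 coincide at 0.78 and Xpr1 NM_011273.2 lies at 4.28. Right, Pearson r over the 8 arrays between probes of 1 gene, with a median of 0.11 over 11773 pairs.

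The disagreement between probes was set against that of other genes. In all, 6438 genes had at least 2 tested probes, giving 11773 pairs. Over the 8 arrays the Pearson r within these pairs had a median of 0.11 and quartiles of -0.21 and 0.43, and 58.3% of pairs had differences of the same sign. The median gap between the 2 differences of a pair was 0.76, whereas that of the Slc20a1 pair was 6.39, and a gap of at least that size was found in 42 pairs (0.357%), the Slc20a1 pair included. Most of the Slc20a1 gap is the difference of 5.89 for which the gene was chosen, so its rarity is no independent evidence. The gap between the tested Xpr1 probes was 0.91. The Slc20a1 pair had an r of -0.68 over the 8 arrays and of 0.33 after group means were subtracted, and the tested Xpr1 pair of -0.41 and -0.42. Apart from the 0.33, these values rest on the split of the arrays into high and low ones at 1 probe of each pair. For Slc20a1 that split is the one between the groups.

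Genes whose probes followed these genes most closely over the 8 arrays were ranked by Pearson r, as a description that likewise rests on which arrays were high and which low. For Slc20a1 NM_015747.2 they were Gnl3l, a nucleolar GTPase (r = 0.976), Shtn1, the cytoskeletal protein shootin 1 (0.972), and the predicted gene Gm4961 (0.965). Their differences were 5.14, 4.63 and 4.38, and 37 probes reached an r over 0.9. Large differences follow from the ranking, since this Slc20a1 probe differed mainly between the groups. For Xpr1 NM_011273.2 they were Atp2c1, a Golgi calcium and manganese pump (0.991), the disulfide isomerase Pdia6 (0.989) and 1810030O07Rik (0.989), with differences of 0.14, 0.55 and 0.19. Other probes had a like pattern of 4 high and 4 low arrays, with 55 at an r over 0.9. How many probes would reach such an r by chance was not tested for any of these genes. For Slc25a3 they were the ribosomal protein gene Rpl15 (0.979), the olfactory receptor Olfr1138 (0.961) and the chromatin remodelling subunit Arid2 (0.956), and 26 probes had an r over 0.9.

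The wider phosphate pathway was followed through 46 other genes, of which 45 were on the array and 43 had at least 1 tested probe. None of their 67 tested probes passed the adjusted threshold in either direction by limma. At an unadjusted p under 0.05 there were 0 higher and 8 lower (11.9%, against 8.66% lower over all tested probes), which became 4 without Psgl1-/- replicate 5 or 7 and 5 without Psgl1+/+ replicate 4 or Psgl1-/- replicate 6. The scaling moved this count further, to 3 lower after quantile normalization, 4 with the array median, 1 higher and 2 lower with cyclic loess, and 13 lower with normexp. The groups did not overlap for 8 probes, all lower in Psgl1-/- (11.9%, against 10.5% over all tested probes). Of the 67 differences 13 were positive and 54 negative, with a median of -0.40 beside -0.32 for all tested probes. The split depended on the scaling, with 19 positive after quantile normalization or scaling to the array median and 28 of 66 after cyclic loess, where the median was -0.07.

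Other phosphate importers did not share the reading of Slc20a1 NM_015747.2. The sodium phosphate cotransporters of the Slc34 family, which act mainly in kidney and gut, had differences of -0.78 for Slc34a3 (SE 0.38, adjusted p = 0.484 by limma) and -0.30 for Slc34a1 (SE 0.24). Without Psgl1+/+ replicate 4 the Slc34a3 difference was -0.46. The Slc34a3 probe was bright in both groups, with means of 13.12 in Psgl1-/- and 13.9 in Psgl1+/+. Whether it reads this gene in these cells was not tested. Of the Slc17 carriers, Slc17a4 differed by -0.53 at probe XM_006516696.1 and 0.06 at probe NM_177016.3, and Slc17a2 by -0.22 and -0.27 at its tested probes (0.11 at the first without Psgl1+/+ replicate 4). These are the members of each family with the smallest unadjusted p, and of the 10 tested probes in both families 3 were positive, beside 31.7% of all tested probes.

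Mitochondrial carriers next to Slc25a3 went both ways. Slc25a5, an ADP/ATP translocase that exchanges the product of ATP synthase, averaged 12.18 ± 2.14 in Psgl1-/- and 10.32 ± 1.21 in Psgl1+/+ (SD, n = 4 each), a difference of 1.86 (SE 1.11, limma adjusted p = 0.516), or 2.88 without Psgl1-/- replicate 5 and 1.22 without Psgl1-/- replicate 8. Slc25a23, an ATP-Mg/phosphate carrier, averaged 9.97 ± 0.49 in Psgl1-/- and 10.63 ± 0.36 in Psgl1+/+, a difference of -0.66 (adjusted p = 0.49). Of the 6 tested probes of this family 3 were positive. Among the sugar phosphate exchangers, Slc37a4, the glucose-6-phosphate transporter of the endoplasmic reticulum, averaged 4.79 ± 0.28 in Psgl1-/- and 6.78 ± 2.04 in Psgl1+/+ without overlap (difference -1.98, limma adjusted p = 0.481). In this direction 10.5% of all tested probes had groups without overlap. Psgl1+/+ replicate 3, at 9.78, carried much of this Slc37a4 difference, which was -0.98 without it. The tested probes of Slc37a3 went opposite ways, with -0.86 at NM_028123.3 (-0.53 without Psgl1+/+ replicate 2) and 1.42 at XM_011241477.

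Enzymes that make or remove the inositol pyrophosphates sensed by XPR1 had positive differences in 3 of 15 tested probes, beside 31.7% of all tested probes, and 1 of the 15 was lower at an unadjusted p under 0.05, beside 8.66% of all. Ppip5k1, a diphosphoinositol pentakisphosphate kinase, averaged 4.37 ± 0.20 in Psgl1-/- and 6.28 ± 1.43 in Psgl1+/+ at probe ENSMUST00000131661 (difference -1.90, limma adjusted p = 0.477). Without Psgl1+/+ replicate 2 this difference was -1.27, and 3 of 4 Psgl1-/- arrays were well above background. The other tested probes of Ppip5k1 gave -0.52 and 0.18. The inositol hexakisphosphate kinase Ip6k3 differed by -0.54. The 3 tested probes of Kidins220, a membrane scaffold that binds XPR1, gave -0.23 to -0.42.

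Genes of pyrophosphate turnover and of systemic phosphate control did not pass either. Enpp1, which makes extracellular pyrophosphate, averaged 6.54 ± 0.87 in Psgl1-/- and 8.71 ± 1.35 in Psgl1+/+ (difference -2.17, limma adjusted p = 0.477; -0.98 at its other tested probe), and the inorganic pyrophosphatase Ppa1 differed by -2.35 at probe ENSMUST00000160470 (-1.25 without Psgl1+/+ replicate 2) and by -0.06 at probe NM_026438.4. Phex, an endopeptidase of bone linked to hereditary phosphate wasting, differed by -1.37 and the secreted glycoprotein Stc1 by -0.72 at its brighter probe (limma adjusted p = 0.477 each). Each was without overlap between the groups, as were 10.5% of all tested probes in this direction. The Phex probe was dim, at the 8.6th percentile of level among the tested probes, whereas this Stc1 probe was at the 98.4th. The other tested Stc1 probe gave -3.69 with overlapping groups, and was well above background on 1 of 4 Psgl1-/- and 3 of 4 Psgl1+/+ arrays. Of the other familial brain calcification genes, the glycosidase Myorg differed by -0.82 and the receptor Pdgfrb by -1.83 (-1.19 without Psgl1+/+ replicate 3), with the same adjusted p of 0.477. The Myorg probe was dim, at the 2.2nd percentile of level. It was well above background on 2 of 4 Psgl1-/- and 3 of 4 Psgl1+/+ arrays.

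**Figure D3:**
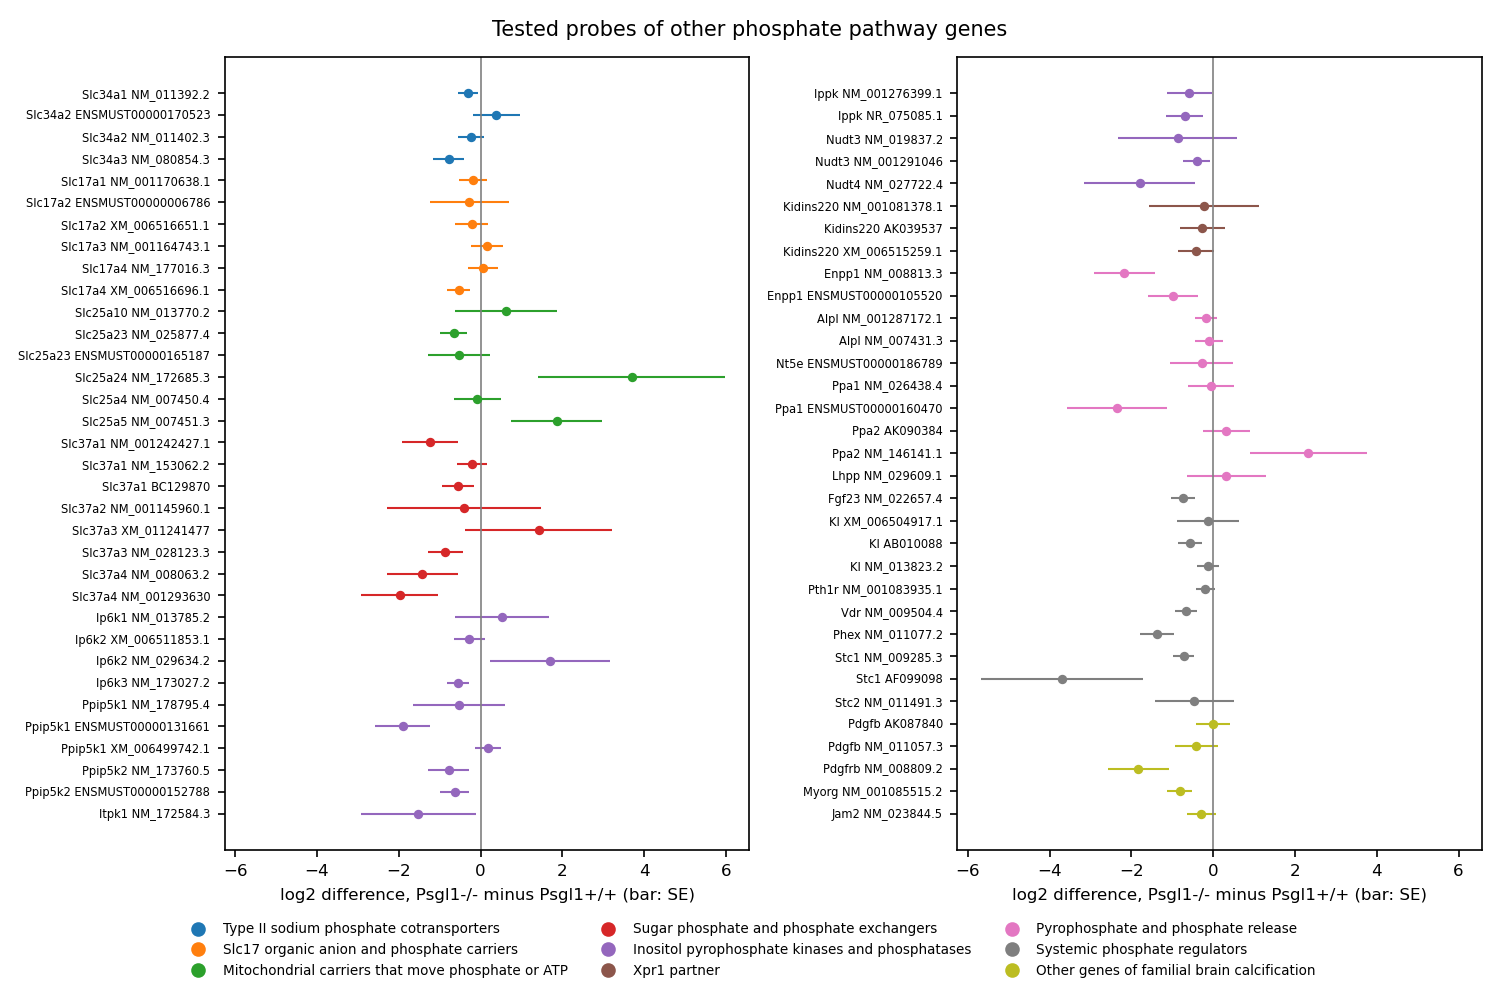
Log2 difference (Psgl1-/- minus Psgl1+/+, horizontal axis) with its SE for the 67 tested probes of 43 other phosphate pathway genes, coloured by role. Of these, 54 lie below 0 and none passed the adjusted threshold.

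Facts of the arrays bear on all of these values. Before scaling, the 75th percentile signal was 833.3 to 958.8 on the Psgl1-/- arrays and 525.8 to 748.6 on the Psgl1+/+ arrays, and the share of gene spots well above background was 76.2% to 88.2% on the Psgl1-/- and 76.1% to 86.8% on the Psgl1+/+ arrays. By slide row this share was 86.2% to 88.2% in row 1 and 76.1% to 81.6% in row 2. The arrays with the mark for Slc20a2 and for Xpr1 ENSMUST00000139925 were all in row 1. Selplg averaged 13.18 ± 0.24 in Psgl1-/- and 13.81 ± 1.36 in Psgl1+/+ (SD, n = 4 each), with overlapping groups, and since the part of the gene that the knockout lacks is not given, its probe does not check the labels. All 9 markers of the sorted myeloid cells, Itgam (CD11b) and Ptprc (CD45) among them, were well above background on all arrays, with list means of 10.44 to 13.26 in Psgl1-/- and 10.03 to 12.12 in Psgl1+/+. Signal was also present for markers of gated-out or other cells, including Ly6g (well above background on 4 of 4 Psgl1-/- and 3 of 4 Psgl1+/+ arrays), Cd3e (all 8) and the 3 neuronal markers (all 8). The means of the 3 T cell markers (6.97 to 7.24 in Psgl1-/-, 7.39 to 9.25 in Psgl1+/+) and of the 3 neuronal markers (14.52 to 14.88 in Psgl1-/-, 15.01 to 15.60 in Psgl1+/+) did not overlap between the groups. Over all tested probes, 10.5% had no overlap in this direction, and the median difference was -0.32. The brightest neuronal probes differed by -0.57 (Snap25), -0.57 (Syt1) and -0.3 (Rbfox3). Taken singly, each T cell marker overlapped between the groups, with -1.81 for Cd3e, -0.11 for Cd3d and -0.51 for Cd3g. Of the 5 genes listed as neutrophil markers, 4 had positive differences, beside 31.7% of all tested probes. The gate used only Ly6G among these, and which cells gave the signals was not tested. S100a9, singled out after its values were seen, averaged 12.46 ± 0.59 in Psgl1-/- and 7.67 ± 3.16 in Psgl1+/+ without overlap (difference 4.79, limma adjusted p = 0.477). In the higher direction 0.66% of all tested probes had groups without overlap. Ly6g differed by 2.40, Ngp by 2.17, S100a8 by 0.59 and Camp by -0.69, and the list mean was 7.94 to 10.92 in Psgl1-/- and 5.72 to 9.07 in Psgl1+/+. The list means of neutrophils, B cells, microglia, astrocytes, oligodendrocytes and endothelium overlapped. Their part in the differences above was not tested, and in sorted bulk samples fewer cells of a type and less RNA per cell cannot be told apart.

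**Figure D4:**
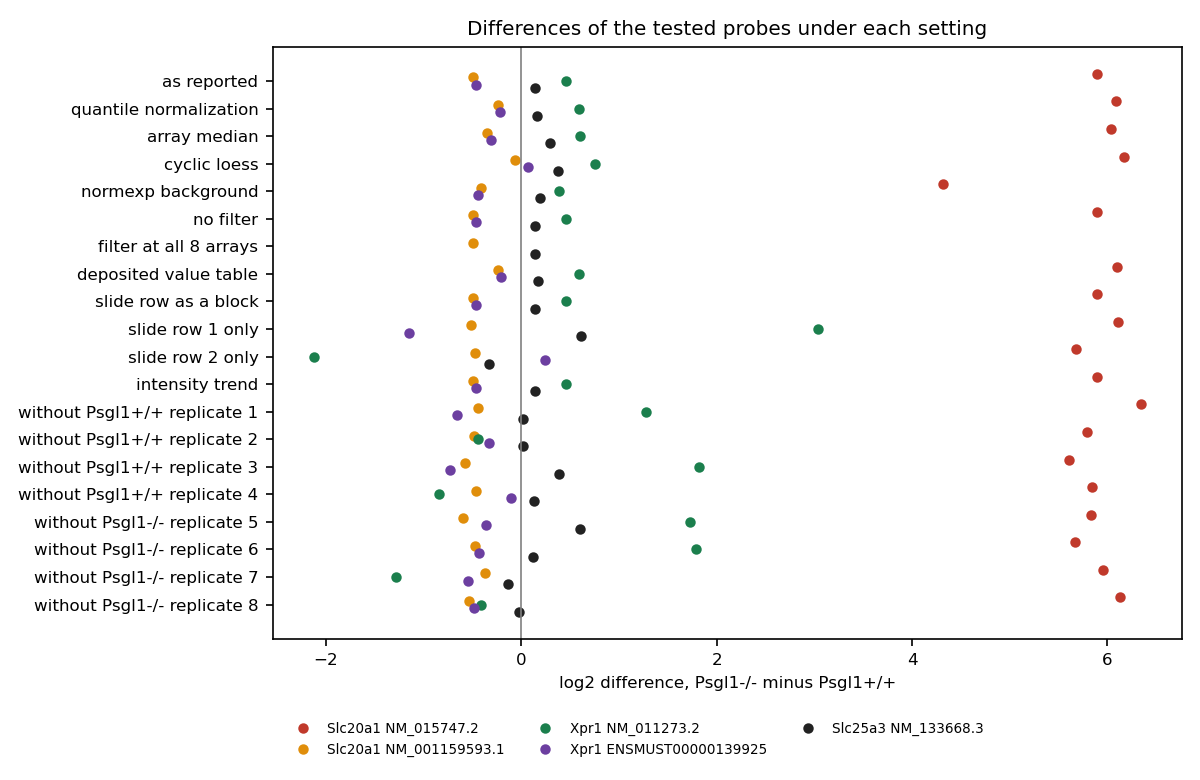
Log2 difference (Psgl1-/- minus Psgl1+/+, horizontal axis) of the 5 tested probes under each scaling, filter, slide row and left-out replicate (vertical axis). Slc20a1 NM_015747.2 stays between 4.32 and 6.34 in the 19 settings that keep it, and Xpr1 NM_011273.2 ranges from -2.12 to 3.04.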

How the data were processed

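RNA of 8 samples of sorted mouse cells was amplified with random primers and labelled with Cy3, per the labels' protocols. The deposited scanner files hold spot intensities on a linear scale from Feature Extraction 11.5.1.1, background-subtracted and detrended within each array but not normalized between arrays, per the file headers. All arrays lay on 1 slide, scanned once; slide columns 1 and 2 held Psgl1+/+ and columns 3 and 4 Psgl1-/- arrays, so slide column and genotype cannot be told apart. The deposited table of values (59448 rows, linear intensity with a median of 132.9 in every column, upstream steps not given in the sources used here) served as an alternative. The lowest correlation of a column with its own array was 0.9902, and the highest with another was 0.7693.

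Control spots (1439 of 62912) and outlier spots (25 to 149 per array) were left out, and no gene spot was saturated. Of 60273 probes, 40419 were named through an accession or symbol in the RefSeq table of assembly GRCm38.p6, used for names and chromosomes only. Signals were log2-transformed, each array's 75th percentile was subtracted and the mean percentile (9.55) added back. Probes that 4 or more of the 8 arrays marked as well above background were fitted with limma 3.58.1 in R 4.3.3 (lmFit, eBayes; data.table, version 1.17.8), with Benjamini-Hochberg adjustment over 51382 probes and a two-sided threshold of 0.05; the fit was tested on simulated data. Tables and plots were made with Python 3.11.15, numpy 2.4.6, pandas 2.3.3 and matplotlib 3.10.9.

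The members, the pathway list and the markers were chosen with earlier results of these data known. Named were all member probes, the 3 probes most correlated with the brightest tested probe of each member, up to 2 pathway genes per role with the smallest unadjusted p, Selplg, and the markers Itgam, Ptprc, Ly6g and Cd3e; where another probe of a named gene is given, it was added after its values were seen. Marker lists were summarised by the brightest probe of each gene. Alternatives covered scaling, background, filter, value table, slide row, variance trend, probe summary and left-out replicates; leaving out arrays for single pathway genes was added after the data were seen. The number of arrays limits the precision.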

Additional observations from a re-analysis of the deposited data

Results flagged for a closer look

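No array stood apart from its group by Dixon's ratio in any of the 7 phosphate transporter probes. The ratio is relative to the range of each group, so it can flag a small offset. Of the 48 groups of 4 arrays examined, members included, 5 were flagged, all of named pathway genes. Chance gives about 1 in 20, but pathway genes were named by their unadjusted p, so that rate need not hold here. All 5 lay in the Psgl1-/- group. Phex was at 3.28 on replicate 7, against 4.38 to 4.53 on the other Psgl1-/- arrays, and Slc37a4 NM_001293630 was at 4.38 on replicate 8, against 4.89 to 4.96. Slc17a4 XM_006516696.1 was at 7.43 on replicate 5, against 7.03 to 7.09, while Slc37a3 NM_028123.3 was at 5.44 (others 5.14 to 5.19) and Stc1 NM_009285.3 at 14.34 (others 14.05 to 14.09) on replicate 6.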

How the results depend on the processing

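The difference of Slc20a1 NM_015747.2 was positive in all 19 settings that keep the probe (5.61 to 6.34 without single replicates). It was 4.32 with normexp, and as the mean of both Slc20a1 probes the gene gave 2.70. The other Slc20a1 probe was negative in all 20 settings, from -0.60 to -0.37 without single replicates, with -0.24 after quantile normalization, -0.24 in the value table and -0.07 after cyclic loess. The difference of Slc25a3 was positive in 17 of 20 settings (-0.14 to 0.60 without single replicates) and that of Xpr1 NM_011273.2 in 14 of 19 (-1.28 to 1.82). Xpr1 ENSMUST00000139925 gave -1.15 in slide row 1 and 0.24 in row 2 (-0.73 to -0.11 without single replicates). The count of all probes past the threshold in the higher direction was 9, and 2 with normexp, 1 with slide row as a block and 0 within either row. It ranged from 0 to 22 without single replicates. In the lower direction it was 0, and 2 with the filter at all 8 arrays (0 to 2 without single replicates). Cyclic loess moved the median difference of all probes by 0.33, and the unadjusted split was then 1547 higher and 896 lower. Quantile normalization gave 1113 higher and 2144 lower, the array median 1054 and 2197, normexp 704 and 8531 and the deposited values 1135 and 2107. Within slide row 1 it was 1331 and 1167, and within row 2 1128 and 1257. The pathway count was 0 in all settings. The causes were not tested. No paired analysis was possible because the labels number Psgl1-/- samples 5 to 8 and Psgl1+/+ samples 1 to 4. Differences of dim probes, such as that of Slc20a2, are limited by background.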
